A study of Mus musculus with 9 samples.

Results

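The 8 forkhead transcription factor genes described here are Foxo1, Foxo3, Foxo4, Foxp1, Foxc1, Foxc2, Foxm1 and Foxn3, taken by symbol from a deposited table of 18094 genes that holds 26 forkhead genes in all. They were followed over 9 RNA sequencing libraries of endothelial cells pulled from mouse hearts with antibody-coated microbeads. Hypertensive BPH/2J mice gave 3 libraries at 22 weeks of age and 3 at 4 weeks, and normotensive BPN/3J mice gave 3 at 22 weeks. The labels name no treatment or engineered allele for any group. Only 1 inbred line stands for high and 1 for normal blood pressure, so the effect of pressure and that of the line's genetic background cannot be told apart. The 4-week BPH/2J and 22-week BPN/3J mice differed in line and age together. Whether the replicates came from separate animals is not given by the labels, and the p-values thus rest on a spread between libraries that may be technical only. The libraries are of bulk cells, in which fewer cells of a type and less RNA per cell cannot be told apart.

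Forkhead factors share a winged-helix DNA-binding domain and otherwise differ in role and control. The FOXO proteins of endothelium (FOXO1, FOXO3 and FOXO4) favour quiescence and restrain growth. Growth factor signalling through AKT phosphorylates them, which ties them to 14-3-3 proteins in the cytoplasm, so their transcript levels do not measure their activity. FOXC1 and FOXC2 act in arterial, lymphatic and valve endothelium, FOXP1 is a repressor that is also present in endothelium, FOXN3 is a repressor linked to checkpoint control, and FOXM1 drives genes of the G2 and M phases in dividing cells.

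Foxo1 and Foxc1 were the 2 members called higher in 22-week BPH/2J both against BPN/3J and against 4-week BPH/2J, and their promoters are shown for that reason. The windows hold the 250 bases before the start of the RefSeq transcript in build GRCm38.p6. GC boxes (GGGCGG, or CCGCCC on the other strand) and CCAAT boxes (CCAAT, or ATTGG on the other strand) are in capitals, and the motifs do not overlap one another. The Foxo1 window is chr3:52268087-52268336 and the Foxc1 window is chr13:31806396-31806645, both on the plus strand.
Foxo1: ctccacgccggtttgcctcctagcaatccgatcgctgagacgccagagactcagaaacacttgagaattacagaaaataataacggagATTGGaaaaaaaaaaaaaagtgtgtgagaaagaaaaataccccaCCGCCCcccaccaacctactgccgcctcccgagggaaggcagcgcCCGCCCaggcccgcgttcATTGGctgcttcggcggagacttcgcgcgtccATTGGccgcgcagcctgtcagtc
Foxc1: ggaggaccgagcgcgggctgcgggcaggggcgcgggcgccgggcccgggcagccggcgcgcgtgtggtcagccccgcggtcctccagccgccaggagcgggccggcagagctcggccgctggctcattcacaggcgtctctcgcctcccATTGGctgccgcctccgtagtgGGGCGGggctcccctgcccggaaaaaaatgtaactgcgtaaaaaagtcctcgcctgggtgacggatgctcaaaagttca
The Foxo1 window held 2 GC boxes and 3 CCAAT boxes, with 56.0% G and C and 20 CpG sites. The Foxc1 window held 1 of each box, with 70.8% G and C and 29 CpG sites. Over 32851 promoters of the same length, 32.7% held a GC box and 33.8% a CCAAT box, and the medians were 52.4% G and C and 6 CpG sites. The table gave 7 promoters for 5 members (Foxo1, Foxo3, Foxp1, Foxc1 and Foxn3). Foxo3 had 5 GC boxes and no CCAAT box at 76.4% G and C, and Foxn3 had neither box at 52.4% G and C. The forkhead motif TGTTTAC, searched on both strands, was in 0 of these 7 windows and in 3.17% of all promoters.

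The libraries held 28806840 to 32913813 counts. Summed markers of endothelium ran from 23130 to 23370 CPM (counts scaled to library size by trimmed mean of M values) in 22-week BPH/2J, from 20680 to 22380 in 4-week BPH/2J and from 20560 to 21250 in BPN/3J. Cardiomyocyte markers summed to 629.5 to 761.5, 474.8 to 764.2 and 1065 to 1296 CPM in the same order of groups, and macrophage markers to 267.3 to 314.8, 511 to 969.4 and 451.4 to 776.5 CPM. Fibroblast markers summed to 832.6 to 943.3, 825.5 to 1197 and 1321 to 1422 CPM. No marker of these lists was at 0 in all 9 libraries. Replicate 1 of 4-week BPH/2J stood apart from the other libraries of its group on the third principal component, at -35.07 against 15.98 and 12.79, and values without it are given where they change a result.

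Per kilobase of gene, Foxo4 and Foxo1 were the most abundant of the 8 transcripts in every group. Levels compared between genes are CPM per kilobase of the deposited gene length (RPKM). In 22-week BPH/2J, Foxo4 stood at 23.8 ± 1.08 RPKM and Foxo1 at 21.9 ± 1.86 RPKM (mean ± SD, n = 3, as throughout), and their libraries overlapped. Foxc1 came next at 11.2 ± 2.13 RPKM, then Foxo3 at 8.0 ± 0.762 and Foxp1 at 7.54 ± 0.460 RPKM, a pair that overlapped. Foxn3 followed at 5.06 ± 0.0979 RPKM, and Foxc2 and Foxm1 tied at the bottom at 1.61 RPKM each.

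The order differed between the groups at Foxm1, Foxc1 and Foxo3. In 4-week BPH/2J, Foxm1 followed Foxo4 and Foxo1 at 8.0 ± 0.544 RPKM, and its libraries overlapped those of Foxo3 at 7.48 ± 0.443 RPKM, the next in order. Foxo3, Foxc1 at 7.17 ± 0.583 and Foxp1 at 6.69 ± 1.06 RPKM also overlapped as neighbours in that group, and Foxc2 was lowest at 1.31 ± 0.385 RPKM. In BPN/3J, Foxo4 reached 27.7 ± 0.879 RPKM and Foxo1 16.6 ± 0.157 RPKM with no overlap, and Foxo3 came next at 11.6 ± 1.59 RPKM, ahead of Foxc1 at 8.04 ± 0.448 RPKM.

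**Figure D1:**
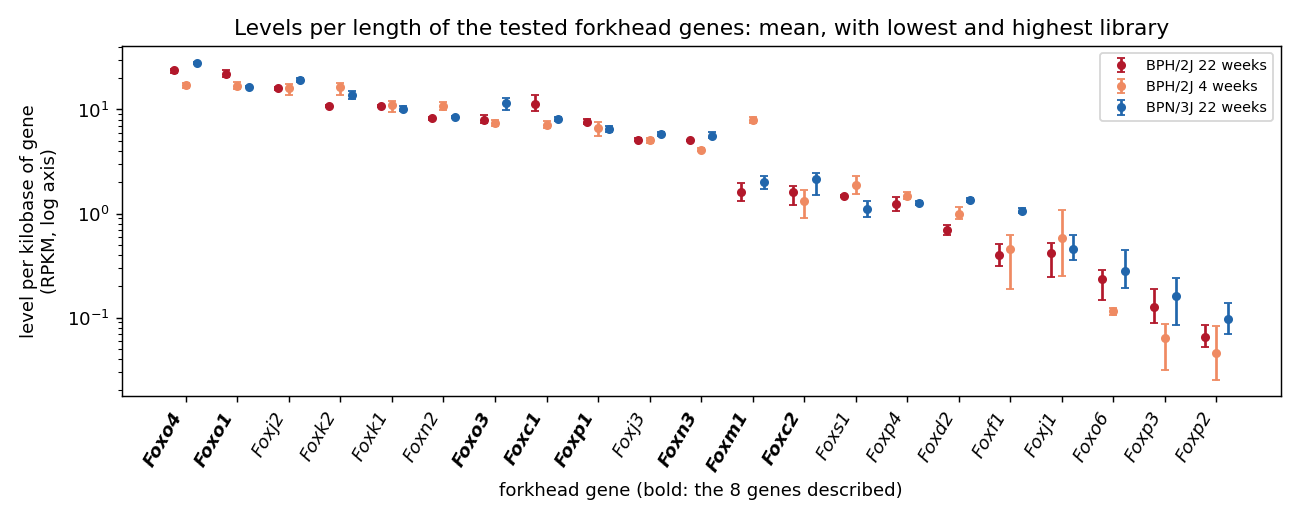
Levels per kilobase of gene (RPKM, log axis) of the 21 forkhead genes that passed the filter on low counts, with points at the mean of 3 libraries and bars from the lowest to the highest library. The 4-week BPH/2J point of Foxm1, at 8.0 RPKM, lies above 1.61 RPKM in 22-week BPH/2J and 2.02 RPKM in BPN/3J.

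Against BPN/3J at equal age, 22-week BPH/2J had more Foxo1 and Foxc1 and less Foxo3 and Foxo4. A transcript is called where edgeR's quasi-likelihood test gave an adjusted p (Benjamini-Hochberg over 15277 tested genes) under 0.05. All 8 members passed the filter on low counts. Of the 8, 4 were called in this comparison, 2 in each direction, against 38.0% of all tested genes (19.8% higher and 18.2% lower). The 3 libraries of 22-week BPH/2J did not overlap those of BPN/3J for 6 members, against 55.7% of all tested genes.

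Within BPH/2J, 22-week endothelium had more Foxo1, Foxo4, Foxc1 and Foxn3 transcript and less Foxm1 than 4-week endothelium. Of the 8 members, 5 were called (4 higher and 1 lower), against 41.0% of all tested genes (19.9% higher and 21.1% lower), and 5 did not overlap, against 51.2%. Between 4-week BPH/2J and 22-week BPN/3J, 5 of 8 were called, with Foxm1 higher and Foxo3, Foxo4, Foxn3 and Foxc2 lower, against 53.1% of all tested genes (27.8% higher and 25.3% lower), and 4 did not overlap, against 59.2%. Each pair of these comparisons shares a group of libraries, so the comparisons are not independent of each other. For so few genes the counts of members were near the background in all 3 comparisons, and they are no result about forkhead genes as a group.

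**Figure D2:**
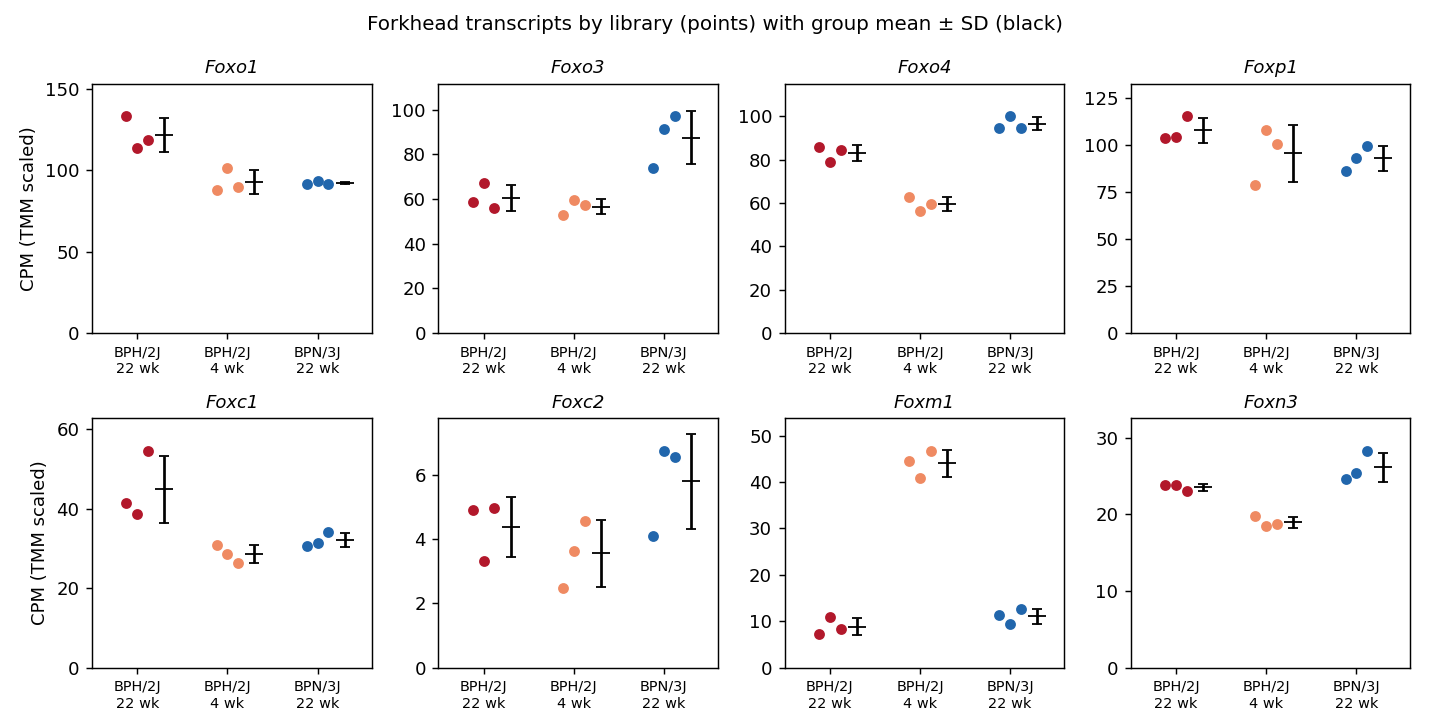
CPM of each of the 8 transcripts in every library (points), with the mean and SD of each group of 3 in black; each panel has its own linear axis from 0. Foxm1 sits at 40.8 to 46.7 CPM in 4-week BPH/2J, above 7.30 to 10.9 CPM in 22-week BPH/2J and 9.38 to 12.6 CPM in BPN/3J.

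Foxo1 (ENSMUSG00000044167, chromosome 3), the FOXO gene whose loss in mice disrupts vessel development, was raised in 22-week BPH/2J alone among the 3 groups. It had 133, 114 and 118 CPM in 22-week BPH/2J, 87.7, 102 and 89.7 CPM in 4-week BPH/2J and 91.9, 93.3 and 91.8 CPM in BPN/3J. Every 22-week BPH/2J library lay above all the others. The log2 fold change of 22-week BPH/2J was 0.40 ± 0.07 (SE) against BPN/3J (adjusted p = 0.00216, edgeR) and 0.39 ± 0.07 against 4-week BPH/2J (adjusted p = 0.00227). Between 4-week BPH/2J and BPN/3J it was 0.01 ± 0.07 (adjusted p = 0.915).

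Foxo3 (ENSMUSG00000048756, chromosome 10), a FOXO gene known for stress resistance and cell survival genes, was lower in BPH/2J at both ages than in BPN/3J. It had 58.7, 67.0 and 55.9 CPM in 22-week BPH/2J, 53.0, 59.5 and 57.4 CPM in 4-week BPH/2J and 74.1, 91.4 and 97.1 CPM in BPN/3J. The BPH/2J ages overlapped, and each lay wholly under the BPN/3J libraries. The log2 fold change was -0.53 ± 0.10 for 22-week BPH/2J against BPN/3J (adjusted p = 0.00266) and -0.63 ± 0.10 for 4-week BPH/2J against BPN/3J (adjusted p = 0.000500). For 22-week against 4-week BPH/2J it was 0.10 ± 0.10 (adjusted p = 0.483).

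Foxo4 (ENSMUSG00000042903, chromosome X), the FOXO gene also described in smooth muscle, took a different value in each group. It had 85.8, 78.8 and 84.7 CPM in 22-week BPH/2J, 63.0, 56.1 and 59.5 CPM in 4-week BPH/2J and 94.8, 100.1 and 94.8 CPM in BPN/3J. No library of one group overlapped another group. Foxo4 rose at 22 weeks against 4 weeks within BPH/2J (log2 0.48 ± 0.06, adjusted p = 0.000193). It was lower in 4-week BPH/2J than in BPN/3J (log2 -0.70 ± 0.06, adjusted p = 7.20e-06). At 22 weeks the difference of BPH/2J from BPN/3J was -0.22 ± 0.06 (adjusted p = 0.0178), and this call ended without replicate 2 of 22-week BPH/2J (adjusted p = 0.0776) or replicate 2 of BPN/3J (adjusted p = 0.0688). The authors' deposited table also places this Foxo4 difference outside the threshold, at a false discovery rate of 0.0534 and a log2 value of 0.202 given as BPN/3J minus BPH/2J. The call was the only one over the 8 genes and 3 comparisons that the authors' deposited table did not share.

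The summed FOXO transcripts per kilobase were 54.0 ± 2.40 RPKM in 22-week BPH/2J, 41.4 ± 0.815 RPKM in 4-week BPH/2J and 56.2 ± 2.16 RPKM in BPN/3J. The Foxo1 share of that sum was higher in every BPH/2J library than in any BPN/3J library. Foxo1 made up 42.4%, 39.3% and 40.0% of it in 22-week BPH/2J, a share of 38.5%, 43.2% and 39.5% in 4-week BPH/2J and one of 30.8%, 29.1% and 29.0% in BPN/3J. The 22-week and 4-week BPH/2J libraries overlapped. Foxo3 made up 14.9% ± 1.87 in 22-week BPH/2J, 18.0% ± 0.852 in 4-week BPH/2J and 20.5% ± 2.17 in BPN/3J. Foxo4 made up 44.2% ± 1.24, 41.3% ± 3.07 and 49.3% ± 1.49 in those groups, and Foxo6, a FOXO gene known mainly from brain, stayed under 1% in every library.

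The Foxo1 to Foxo3 ratio was 2.77 ± 0.408 in 22-week BPH/2J and 1.46 ± 0.209 in BPN/3J, and it was 2.24 ± 0.0989 in 4-week BPH/2J. The Foxo1 share and this ratio each reached p = 0.1 in the two-sided exact permutation test for both BPH/2J ages against BPN/3J, the smallest p that 3 libraries against 3 allow, and 0.15 after adjustment over 15 such tests. This permutation test cannot pass a threshold of 0.05 with 3 libraries against 3.

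**Figure D3:**
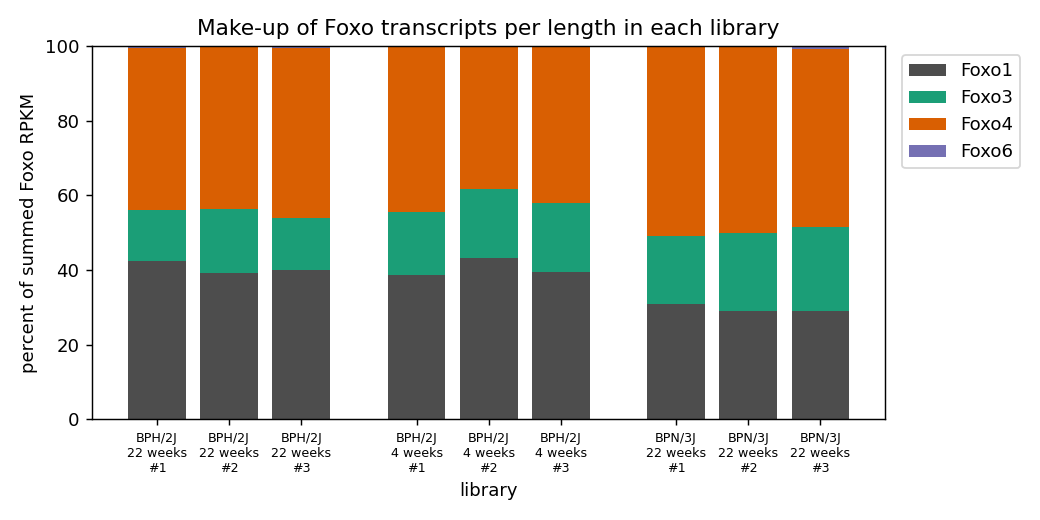
Percent of the summed FOXO RPKM that each FOXO gene makes up in every library, with the 3 groups side by side. The Foxo1 segment spans 38.5% to 43.2% in the 6 BPH/2J libraries and 29.0% to 30.8% in the 3 BPN/3J libraries.

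Foxc1 (ENSMUSG00000050295, chromosome 13), a regulator of vessel and heart valve development, was raised in 22-week BPH/2J against both other groups. It had 41.4, 38.6 and 54.5 CPM in 22-week BPH/2J, 30.9, 28.6 and 26.3 CPM in 4-week BPH/2J and 30.8, 31.3 and 34.1 CPM in BPN/3J. All 22-week BPH/2J libraries lay above the others, with replicate 3 the highest. The log2 fold change was 0.48 ± 0.12 against BPN/3J (adjusted p = 0.00954) and 0.65 ± 0.12 against 4-week BPH/2J (adjusted p = 0.00183). The groups of 4-week BPH/2J and BPN/3J overlapped, at -0.16 ± 0.12 (adjusted p = 0.277).

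Foxc2 (ENSMUSG00000046714, chromosome 8), the relative needed for lymphatic valves, was scarce and variable. It had 4.90, 3.31 and 4.96 CPM in 22-week BPH/2J, 2.48, 3.62 and 4.57 CPM in 4-week BPH/2J and 4.08, 6.74 and 6.56 CPM in BPN/3J. The groups overlapped in every comparison. Its fold change was called once, for 4-week BPH/2J against BPN/3J at log2 -0.70 ± 0.26 (adjusted p = 0.0442), and that call ended without replicate 1 of 4-week BPH/2J (log2 -0.50, adjusted p = 0.115). It ended as well without replicate 2 of 4-week BPH/2J, replicate 1 or 3 of 22-week BPH/2J, or replicate 2 or 3 of BPN/3J, with adjusted p from 0.0540 to 0.143. The log2 fold change was -0.40 ± 0.26 for 22-week BPH/2J against BPN/3J (adjusted p = 0.247) and 0.30 ± 0.27 for 22-week against 4-week BPH/2J (adjusted p = 0.394).

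Foxp1 (ENSMUSG00000030067, chromosome 6), which encodes a repressor that pairs with other FOXP proteins, passed the test in none of the 3 comparisons. It had 103.6, 104 and 115 CPM in 22-week BPH/2J, 78.5, 108 and 100.4 CPM in 4-week BPH/2J and 85.9, 92.7 and 99.4 CPM in BPN/3J. The 22-week BPH/2J libraries lay above those of BPN/3J, and both overlapped the wide 4-week group. The log2 fold change for 22-week BPH/2J was 0.21 ± 0.11 against BPN/3J (adjusted p = 0.136) and 0.17 ± 0.11 against 4-week BPH/2J (adjusted p = 0.222), and 4-week BPH/2J against BPN/3J gave 0.04 ± 0.11 (adjusted p = 0.760). Without replicate 1 of 4-week BPH/2J, the lowest library of all, the difference of 22-week BPH/2J from BPN/3J was 0.22 with an adjusted p of 0.0216. Without that library the other differences were 0.05 at 22 against 4 weeks (adjusted p = 0.593) and 0.17 in 4-week BPH/2J against BPN/3J (adjusted p = 0.0806). Over all settings tried, the log2 fold change from BPN/3J ran from -0.20 to 0.27 at 22 weeks and from -0.54 to 0.17 at 4 weeks. Both low ends came from the fit with cardiomyocyte markers as a covariate, described below.

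Foxn3 (ENSMUSG00000033713, chromosome 12), whose product was described as a checkpoint suppressor in yeast, was lowest in young BPH/2J. It had 23.8, 23.8 and 23.0 CPM in 22-week BPH/2J, 19.8, 18.4 and 18.7 CPM in 4-week BPH/2J and 24.7, 25.4 and 28.3 CPM in BPN/3J. The 3 groups did not overlap. Foxn3 was higher at 22 than at 4 weeks in BPH/2J (log2 0.31 ± 0.07, adjusted p = 0.00683) and lower in 4-week BPH/2J than in BPN/3J (log2 -0.46 ± 0.07, adjusted p = 0.000385). The difference of 22-week BPH/2J from BPN/3J, -0.15 ± 0.07, did not pass (adjusted p = 0.124).

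Foxm1 (ENSMUSG00000001517, chromosome 6), the driver of mitotic genes, had the largest fold change of the 8 members in both comparisons that involve 4-week BPH/2J. It had 7.30, 10.9 and 8.41 CPM in 22-week BPH/2J, 44.5, 40.8 and 46.7 CPM in 4-week BPH/2J and 11.3, 9.38 and 12.6 CPM in BPN/3J. The 4-week libraries stood far above both 22-week groups, which overlapped each other. Foxm1 was 4.96-fold lower at 22 than at 4 weeks in BPH/2J (log2 -2.31 ± 0.15, adjusted p = 8.17e-06). In 4-week BPH/2J it was higher than in BPN/3J by 1.99 ± 0.14 on the log2 scale (adjusted p = 2.10e-06). The 22-week groups differed by -0.32 ± 0.15 in BPH/2J against BPN/3J (adjusted p = 0.110), and without replicate 2 of 22-week BPH/2J this difference was -0.49 (adjusted p = 0.0212).

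**Figure D4:**
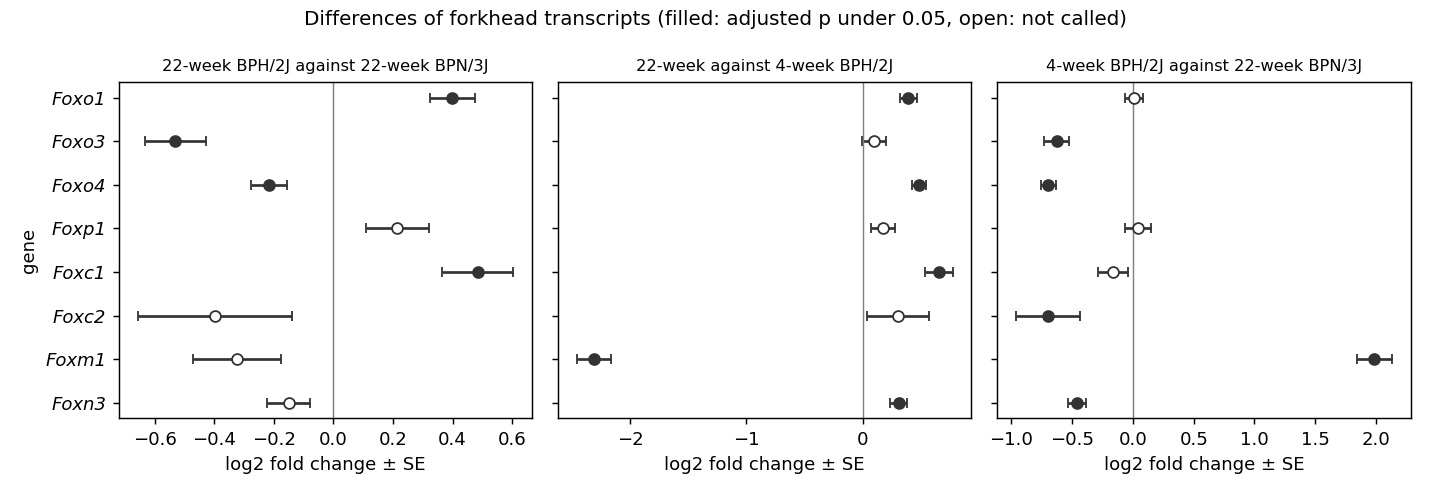
Log2 fold change with its SE for the 8 transcripts in the 3 comparisons (filled points: adjusted p under 0.05; each panel has its own axis). Foxo1 and Foxc1 lie right of 0 in both comparisons of 22-week BPH/2J, and Foxm1 lies at -2.31 against 4-week BPH/2J.

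Differences in marker genes of other cell types stood beside these results. Of 18 tested cardiomyocyte markers, 11 were lower in 22-week BPH/2J than in BPN/3J, 15 were lower in 4-week BPH/2J than in BPN/3J, and 3 were higher at 22 than at 4 weeks, and the remaining markers in each comparison were not called. Of 19 tested macrophage markers, 1 was higher and 12 were lower in 22-week BPH/2J than in BPN/3J (median log2 fold change -0.94). Of 20 endothelial markers, 11 were higher and 3 lower in the same comparison (median 0.27). The part of these cells in the differences of the members was not tested. Every BPN/3J library lay above every BPH/2J library in the cardiomyocyte sum, so this sum and the line cannot be told apart. With the average log2 level of these cardiomyocyte markers added to the fit as a covariate, 1 member was called for 22-week BPH/2J against BPN/3J (Foxo3) and 2 for 4-week BPH/2J against BPN/3J (Foxm1 and Foxo4). Over all 15277 tested genes, 3938 (25.8%) and 2752 (18.0%) were called in these comparisons under the covariate. In that fit the 22-week difference between the lines was 0.34 ± 0.15 for Foxo1 (adjusted p = 0.118), 0.67 ± 0.24 for Foxc1 (adjusted p = 0.0587) and -0.01 ± 0.10 for Foxo4 (adjusted p = 0.944). The difference of 4-week BPH/2J from BPN/3J was -0.82 ± 0.27 for Foxo3 (adjusted p = 0.0622) and -0.29 ± 0.18 for Foxn3 (adjusted p = 0.288). The age comparison kept its calls under the covariate, with 6 members called and Foxp1 added (log2 0.33, adjusted p = 0.0228), against 4961 (32.5%) of all tested genes.

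Transcripts of the proteins that act on FOXO, taken as a whole list, were more often lower than higher in BPH/2J than in BPN/3J. The list holds genes of insulin receptor signalling, AKT, 14-3-3 proteins and acetyltransferases. Several of its 14-3-3 genes, and Akt1, were higher in 4-week BPH/2J than in BPN/3J. Of 45 listed regulators and partners, all tested, 3 were higher and 20 lower in 22-week BPH/2J. Of all tested genes, 19.8% were higher and 18.2% lower. The median log2 fold change of the list was -0.18 against 0.02 over all tested genes. Ctnnb1, which encodes beta-catenin, a FOXO partner, averaged 2151 CPM in 22-week BPH/2J and 1407 CPM in BPN/3J (log2 0.61 ± 0.07, adjusted p = 9.24e-05). Kdr, the main VEGF receptor of endothelium, was higher by 0.61 ± 0.10 (adjusted p = 0.000897). Sgk1, a kinase that phosphorylates FOXO proteins, averaged 629.7 CPM in 22-week BPH/2J and 1369 CPM in BPN/3J (log2 -1.12 ± 0.12, adjusted p = 5.03e-05), and Ep300, an acetyltransferase that binds FOXO proteins, was lower by -0.52 ± 0.08 on the log2 scale (adjusted p = 0.000902). With the cardiomyocyte covariate the lower regulators numbered 13 and the higher ones 1, where 25.8% of all tested genes were called.

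With age in BPH/2J, 7 regulators were higher and 11 lower at 22 than at 4 weeks, with a median of -0.02 against 0.00 over all tested genes. Of all tested genes, 41.0% were called in this comparison, so the count of called regulators was near the background. The lower ones included the 14-3-3 genes Ywhah, at 206.7 CPM in 22-week and 409.8 CPM in 4-week BPH/2J (log2 -0.99 ± 0.10, adjusted p = 5.69e-05), and Ywhae (log2 -0.61 ± 0.07, adjusted p = 0.000116). Insr, the insulin receptor, was higher by 0.64 ± 0.10 (adjusted p = 0.000735) and Pik3r2, a regulatory subunit of PI3-kinase, by 0.57 ± 0.08 (adjusted p = 0.000328). In 4-week BPH/2J against BPN/3J, where 27.8% of all tested genes were higher and 25.3% lower, 11 regulators were higher and 22 lower (median -0.19). The lower ones included Pik3r2 at -0.60 ± 0.08 (adjusted p = 0.000110) and the 14-3-3 sigma gene Sfn at -0.93 ± 0.12 (adjusted p = 0.000128). Ywhae was higher there by 0.57 ± 0.07 (adjusted p = 7.83e-05). With the covariate, 2 regulators were higher and 6 lower in this comparison, where 18.0% of all tested genes were called.

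Genes described as FOXO targets, which include cell cycle inhibitors, autophagy genes and antioxidant enzymes, were mostly lower in BPH/2J than in BPN/3J where they were called, and mostly higher at 22 than at 4 weeks. Of 40 listed, 39 were tested. In 22-week BPH/2J against BPN/3J, where 19.8% of all tested genes were higher and 18.2% lower, 4 targets were higher and 16 lower. Their median log2 fold change was -0.25 against 0.02 over all tested genes. The lower ones included Cdkn1a, the cyclin-dependent kinase inhibitor p21, at 68.0 CPM in 22-week BPH/2J and 365 CPM in BPN/3J (log2 -2.42 ± 0.10, adjusted p = 7.77e-08). Klf6, a zinc finger transcription factor, stood at 416.7 CPM in 22-week BPH/2J and 851 CPM in BPN/3J (log2 -1.03 ± 0.09, adjusted p = 2.16e-05). Tnfsf10, which encodes the death ligand TRAIL, went the other way, at 262 CPM in 22-week BPH/2J and 115 CPM in BPN/3J (log2 1.19 ± 0.09, adjusted p = 8.63e-06), as did Pik3ip1, an inhibitor of PI3-kinase (log2 0.84 ± 0.07, adjusted p = 1.73e-05).

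At 22 against 4 weeks in BPH/2J, 17 FOXO targets were higher and 5 lower, with a median of 0.17 against 0.00 over all tested genes. Of all tested genes, 19.9% were higher and 21.1% lower. Pik3ip1 averaged 85.5 CPM in 22-week and 40.5 CPM in 4-week BPH/2J (log2 1.08 ± 0.07, adjusted p = 1.16e-05), and the mitophagy gene Bnip3 141 and 76.8 CPM (log2 0.88 ± 0.09, adjusted p = 4.97e-05). Cdkn1a (log2 -1.03 ± 0.10, adjusted p = 3.80e-05) and Bbc3, which encodes the death protein PUMA (log2 -0.69 ± 0.13, adjusted p = 0.00193), were lower at 22 weeks. In 4-week BPH/2J against BPN/3J, 4 targets were higher and 25 lower, with a median of -0.46. Of all tested genes, 27.8% were higher and 25.3% lower there. The mitophagy kinase Pink1 stood at 85.1 CPM in 4-week BPH/2J and 231.6 CPM in BPN/3J (log2 -1.44 ± 0.12, adjusted p = 6.19e-06), and Cdkn1a was lower by -1.40 ± 0.10 on the log2 scale (adjusted p = 1.79e-06). Tnfsf10 (log2 0.71 ± 0.09, adjusted p = 0.000113) and Ddb1, a subunit of a DNA damage complex (log2 0.37 ± 0.06, adjusted p = 0.000289), were higher. With the cardiomyocyte covariate the lower targets numbered 9 against BPN/3J for 22-week BPH/2J, and 13 for the 4-week mice. Of all tested genes, 25.8% and 18.0% were called in these comparisons under the covariate. Those shares count both directions together, so they are no like measure for the lower targets alone. Insr, Irs2 and Rictor stand in both FOXO lists, so the lists share these genes.

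**Figure D5:**
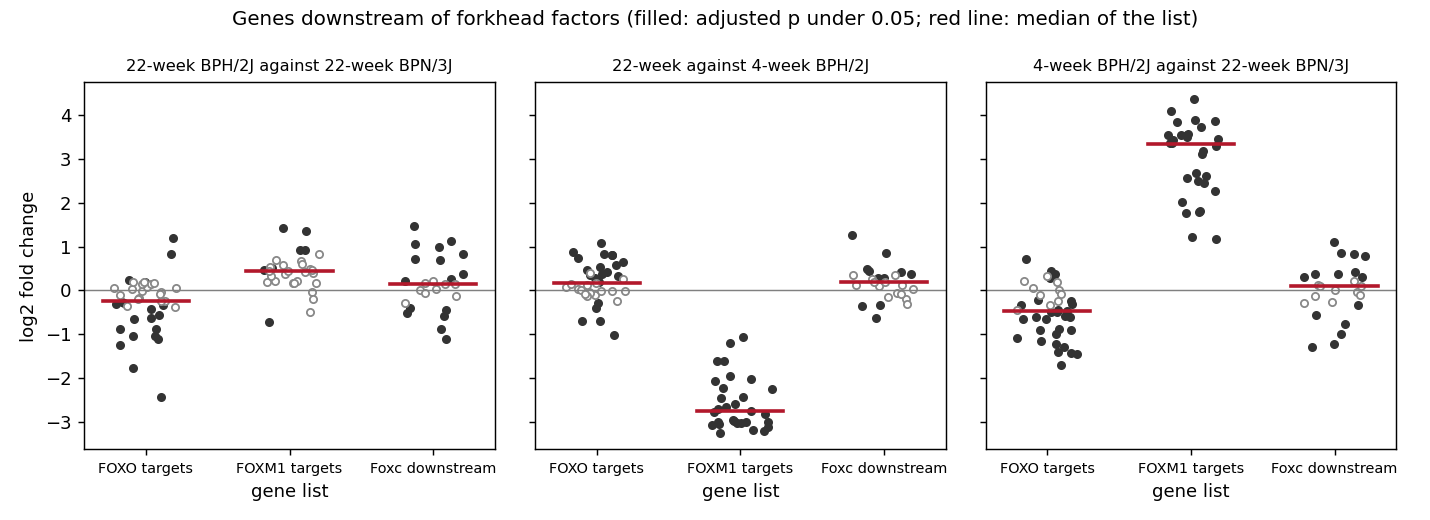
Log2 fold change of each tested gene in the lists of FOXO targets, FOXM1 targets and genes downstream of Foxc1 and Foxc2, in the 3 comparisons (filled: adjusted p under 0.05; red line: median of the list). The FOXM1 targets lie under -1 in 22-week against 4-week BPH/2J, with a median of -2.76, and above 1 in 4-week BPH/2J against BPN/3J, with a median of 3.33.

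The FOXM1 targets moved together with age in BPH/2J. All 30 listed genes of the G2 and M phases were tested, and all 30 were lower at 22 than at 4 weeks (median log2 fold change -2.76) and higher in 4-week BPH/2J than in BPN/3J (median 3.33), against medians of 0.00 over all tested genes. Of all tested genes, 21.1% were lower at 22 than at 4 weeks and 27.8% higher in 4-week BPH/2J than in BPN/3J. Summed over the list, they made up 129.4 to 216.8 CPM in 22-week BPH/2J, 820 to 1016 CPM in 4-week BPH/2J and 122.3 to 159.4 CPM in BPN/3J. Incenp, a subunit of the chromosomal passenger complex, stood at 14.6 CPM in 22-week and 44.6 CPM in 4-week BPH/2J (log2 -1.61 ± 0.09, adjusted p = 7.49e-06). Kif23, a kinesin of cytokinesis, stood at 8.31 and 55.7 CPM (log2 -2.74 ± 0.16, adjusted p = 7.77e-06). Ccnb1, which encodes cyclin B1, reached 16.2 CPM in 4-week BPH/2J against 0.783 CPM in BPN/3J (log2 4.37 ± 0.24, adjusted p = 3.65e-07).

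At 22 weeks fewer of these genes were called between the lines. In BPH/2J, 6 of 30 FOXM1 targets were higher and 1 lower than in BPN/3J, with a median of 0.44. That called share was under the 38.0% of all tested genes. Without replicate 2 of 22-week BPH/2J, 1 target was higher and 2 were lower. Ccnb1 averaged 2.00 CPM in 22-week BPH/2J and 0.783 CPM in BPN/3J (log2 1.35 ± 0.27, adjusted p = 0.00290), the mitotic kinase gene Aurka was higher by 0.51 ± 0.15 (adjusted p = 0.0242), and Kif23 was lower by -0.73 ± 0.16 on the log2 scale (adjusted p = 0.00598). Macrophage markers stood beside these age differences, with 15 of 19 lower at 22 than at 4 weeks and 3 of 19 higher in 4-week BPH/2J than in BPN/3J, the rest not being called. Fibroblast markers were split, with 4 higher and 5 lower of 14 at 22 than at 4 weeks and 6 in each direction in 4-week BPH/2J against BPN/3J. Of 14 tested lymphocyte markers, 9 were higher at 22 than at 4 weeks (median log2 fold change 0.90) and the rest were not called, and of 10 endocardial markers 5 were higher and 1 lower (median 0.76). The part of these cells in the Foxm1 and FOXM1 target differences was not tested.

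Genes listed as regulators of FOXM1, among them cyclins, kinases and E2F factors, were also mostly lower at 22 than at 4 weeks. The list also holds Mki67, a proliferation marker (log2 -3.00 ± 0.33 in that comparison, adjusted p = 7.42e-05). Rbl2 stands both in this list and among the FOXO targets. Of 30 listed regulators, 3 were higher and 22 lower at 22 than at 4 weeks (median -0.68, background 41.0% called). In 4-week BPH/2J against BPN/3J 21 were higher and 3 lower (median 0.55, background 53.1%). In 22-week BPH/2J against BPN/3J 5 were higher and 3 lower (median 0.02), a called share under the background of 38.0%. The kinase inhibitor gene Cdkn2c averaged 12.2 CPM in 22-week and 29.8 CPM in 4-week BPH/2J (log2 -1.29 ± 0.10, adjusted p = 1.55e-05). Tfdp1, the partner of E2F proteins, averaged 34.0 and 73.3 CPM (log2 -1.11 ± 0.09, adjusted p = 2.28e-05). Rbl2, which encodes the pocket protein p130 of resting cells, was higher at 22 than at 4 weeks by 0.32 ± 0.07 (adjusted p = 0.00595) and lower in 4-week BPH/2J than in BPN/3J (log2 -0.64 ± 0.07, adjusted p = 4.07e-05). At 22 weeks Cdk4 (log2 0.43 ± 0.09, adjusted p = 0.00374) and Ccnd1, which encodes cyclin D1 (log2 0.54 ± 0.12, adjusted p = 0.00561), were higher in BPH/2J than in BPN/3J, and E2f7, a repressor of E2F genes, was lower (log2 -0.65 ± 0.13, adjusted p = 0.00254).

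Genes placed downstream of Foxc1 and Foxc2 were divided. Of 26 listed, 25 were tested, of which 10 were higher and 6 lower in 22-week BPH/2J than in BPN/3J (median 0.15, background 38.0% called). At 22 against 4 weeks 8 were higher and 3 lower (median 0.19, background 41.0%). In 4-week BPH/2J against BPN/3J 9 were higher and 6 lower (median 0.11, background 53.1%). Medians over all tested genes were 0.02, 0.005 and 0.0015. The called counts were near the background in both comparisons with 4-week BPH/2J. Gja4, the arterial connexin 37, averaged 75.4 CPM in 22-week BPH/2J and 27.3 CPM in BPN/3J (log2 1.47 ± 0.14, adjusted p = 2.56e-05). Cxcl12, a chemokine, averaged 3229 CPM in 22-week BPH/2J against 1823 CPM in BPN/3J (log2 0.82 ± 0.08, adjusted p = 3.66e-05) and 1778 CPM in 4-week BPH/2J (log2 0.86 ± 0.08, adjusted p = 3.56e-05). Rasa4, a brake on RAS signalling, averaged 202.7 CPM in 22-week and 83.7 CPM in 4-week BPH/2J (log2 1.28 ± 0.13, adjusted p = 5.09e-05). Klf2, a factor induced by blood flow, was lower in BPH/2J than in BPN/3J at 22 weeks (log2 -1.10 ± 0.11, adjusted p = 3.37e-05) and at 4 weeks (log2 -1.22 ± 0.11, adjusted p = 7.21e-06), and so was Gata2, an endothelial transcription factor, in 4-week BPH/2J (log2 -0.997 ± 0.07, adjusted p = 2.00e-06). Without replicate 1 of 4-week BPH/2J, 6 genes of this list were lower at 22 than at 4 weeks. With the cardiomyocyte covariate 2 were higher and 5 lower in 4-week BPH/2J than in BPN/3J, where 18.0% of all tested genes were called in either direction. Klf2 and Angpt2 stand in both this list and that of FOXO targets.

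Partners of FOXP1, mostly subunits of corepressor complexes, were 4 higher and 2 lower of 22 in 22-week BPH/2J against BPN/3J (median log2 fold change -0.05), where 38.0% of all tested genes were called. They were 2 higher and 8 lower at 22 against 4 weeks (median -0.11, background 41.0%), and 8 higher and 3 lower in 4-week BPH/2J against BPN/3J (median 0.04, background 53.1%). The histone deacetylase gene Hdac1 averaged 93.9 CPM in 22-week BPH/2J and 65.6 CPM in BPN/3J (log2 0.52 ± 0.07, adjusted p = 0.000335) and was higher in 4-week BPH/2J too (log2 0.63 ± 0.07, adjusted p = 3.98e-05). Satb1, a chromatin organiser, was higher at 22 than at 4 weeks by 0.72 ± 0.18 (adjusted p = 0.00972). Ctbp2 (log2 -0.62 ± 0.10, adjusted p = 0.000626) and Rbbp4 (log2 -0.33 ± 0.05, adjusted p = 0.000973) were lower in that comparison. Nfatc2 was lower in 22-week BPH/2J than in BPN/3J (log2 -0.77 ± 0.13, adjusted p = 0.00133). Among 14 tested genes of the checkpoint and SIN3 partners listed for FOXN3, 3 were higher and 3 lower in 22-week BPH/2J than in BPN/3J (median -0.10), 2 were higher and 4 lower at 22 than at 4 weeks (median -0.03), and 4 were called in each direction in 4-week BPH/2J against BPN/3J (median -0.04), against the same backgrounds. Chek2, a checkpoint kinase, averaged 99.8 CPM in 22-week BPH/2J and 51.4 CPM in BPN/3J (log2 0.96 ± 0.09, adjusted p = 2.78e-05). Trp53, which encodes p53, was lower at 22 than at 4 weeks in BPH/2J (log2 -0.55 ± 0.06, adjusted p = 0.000106), and so was the checkpoint kinase gene Chek1 (log2 -2.57 ± 0.27, adjusted p = 6.04e-05).

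Of the other 18 forkhead genes in the table, 13 passed the filter. In 22-week BPH/2J against BPN/3J, 5 of the 13 were lower (Foxd2, Foxf1, Foxj2, Foxj3 and Foxk2) and 8 were not called, a called share of 38.5% against 38.0% of all tested genes. At 22 against 4 weeks in BPH/2J, 3 were lower (Foxd2, Foxk2 and Foxn2) and 10 were not called, or 23.1% against 41.0%. In 4-week BPH/2J against BPN/3J, 3 were higher and 6 lower, or 69.2% against 53.1%. Foxk2, a forkhead gene of metabolic control, averaged 60.5 ± 1.44 CPM in 22-week BPH/2J, 92.7 ± 14.0 CPM in 4-week BPH/2J and 77.1 ± 6.55 CPM in BPN/3J (log2 -0.62 ± 0.10 at 22 against 4 weeks, adjusted p = 0.00106). Foxn2, the closest relative of Foxn3 among these genes, was lower at 22 than at 4 weeks (log2 -0.39 ± 0.07, adjusted p = 0.00140) and higher in 4-week BPH/2J than in BPN/3J (log2 0.36 ± 0.07, adjusted p = 0.00119), so its signs were opposite to those of Foxn3. Foxd2 was low throughout, at 1.81 ± 0.187 CPM in 22-week BPH/2J and 3.51 ± 0.15 CPM in BPN/3J (log2 -0.96 ± 0.17, adjusted p = 0.00148).

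Some neighbours of the members on their chromosomes were called too. Of all tested genes, 38.0%, 41.0% and 53.1% were called in the 3 comparisons, in the order given above. Neighbours were named after their values were seen, so the called ones are no result about neighbours as a set. Foxf1, a forkhead gene close to Foxc2 on chromosome 8, averaged 0.484 ± 0.118 CPM in 22-week BPH/2J, 0.554 ± 0.285 CPM in 4-week BPH/2J and 1.30 ± 0.0775 CPM in BPN/3J. It was lower than in BPN/3J both in 22-week BPH/2J (log2 -1.42, adjusted p = 0.0101) and in 4-week BPH/2J (log2 -1.23, adjusted p = 0.0126). Foxq1 and Foxf2, the forkhead neighbours of Foxc1 on chromosome 13, were below the filter. Sesn1, a stress-response gene listed among the FOXO targets, lies close to Foxo3 on chromosome 10. It was lower in BPH/2J than in BPN/3J at 22 weeks (log2 -0.56, adjusted p = 0.00165) and at 4 weeks (log2 -1.15, adjusted p = 7.20e-06), and it was higher at 22 than at 4 weeks (log2 0.59, adjusted p = 0.00115). Rhno1, a checkpoint gene beside Foxm1 on chromosome 6, was lower at 22 than at 4 weeks (log2 -0.51, adjusted p = 0.00159) and higher in 4-week BPH/2J than in BPN/3J (log2 0.42, adjusted p = 0.00278), the directions of Foxm1. Other neighbours went the opposite way to the member beside them. Snx12, a sorting nexin gene, and Il2rg, a cytokine receptor gene, lie close to Foxo4 on chromosome X. Snx12 was higher in 22-week BPH/2J (log2 0.25, adjusted p = 0.0119) and in 4-week BPH/2J (log2 0.70, adjusted p = 8.14e-06) than in BPN/3J, and lower at 22 than at 4 weeks (log2 -0.46, adjusted p = 0.000302). Il2rg gave 0.37 (adjusted p = 0.00377), 0.71 (adjusted p = 2.96e-05) and -0.34 (adjusted p = 0.00536) in the same comparisons, so both were opposite in sign to Foxo4 in all 3. Near Foxn3 on chromosome 12, the DNA repair gene Tdp1 was lower at 22 than at 4 weeks (log2 -0.50, adjusted p = 0.00136). It was higher in 4-week BPH/2J than in BPN/3J (log2 0.62, adjusted p = 0.000196), opposite to Foxn3. Efcab11 had the directions of Tdp1 (log2 -2.51 and 2.50). It was near the floor, at 0.18 CPM in 22-week BPH/2J, 1.06 CPM in 4-week BPH/2J and 0.18 CPM in BPN/3J. Eml5 had the directions of Foxn3 (log2 0.38, adjusted p = 0.0494, and -0.47, adjusted p = 0.0167, in the same order). Ttc8 was higher than in BPN/3J in 22-week BPH/2J (log2 1.46, adjusted p = 0.000591) and in 4-week BPH/2J (log2 1.08, adjusted p = 0.00208). Snx3, a sorting nexin gene near Foxo3, was higher in 4-week BPH/2J than in BPN/3J (log2 0.70, adjusted p = 0.000267), where Foxo3 was lower. Foxo3, Foxp1, Foxm1 and Foxn3 overlap other annotated genes, none of which has a row in the table, and the use of strand in the counting is not given in the sources used here.

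Likeness of pattern was measured over the 9 libraries as the root mean square difference of mean-centred log2 CPM, among 10153 genes that averaged 5 CPM or more, and the 2 nearest genes are given for 7 members. The measure is not scaled by how much a member varies, so it does not rank the members. Nearest to Foxo1 were Sp100, a nuclear body gene, at 0.048, and Lias, the lipoic acid synthase gene, at 0.062. Ep300, listed above as a FOXO partner, was nearest to Foxo3 at 0.061, followed by the semaphorin gene Sema6b at 0.067. Foxo4 had Exoc6, a gene of the exocyst, at 0.053 and Tmem110 at 0.056. Foxm1 had the replication gene Cdc45 at 0.107 and the lamin gene Lmnb1 at 0.122, and Lmnb1 averaged 18.7 CPM in 22-week BPH/2J, 85.5 CPM in 4-week BPH/2J and 20.9 CPM in BPN/3J. Foxn3 had R3hdm2 at 0.036 and the kinase anchor gene Akap11 at 0.042. Foxp1 lay near Wdr81 at 0.046 and the peroxisome gene Pex6 at 0.076, and Foxc1 near Nprl3, a regulator of mTORC1, at 0.106 and Adck5 at 0.11.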

How the data were processed

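The authors deposited a table of 18094 genes with raw counts for 9 libraries, CPM values, gene lengths, log2 fold changes and p-values with false discovery rates, per the file headers. Build mm9, TopHat2 2.0.13, Bowtie2, CASAVA 1.8.2, FastQC, edgeR and featureCounts of Subread are named in the submitters' processing notes. The annotation, the strandedness and the authors' model are not given in the sources used here.

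filterByExpr left 15277 genes of the deposited counts, and libraries were scaled by the TMM method (trimmed mean of M values). All 9 libraries entered 1 quasi-likelihood fit by group (edgeR 4.0.16, R 4.3.3), with two-sided F tests, Benjamini-Hochberg adjustment and a threshold of 0.05. The SE is the size of the log2 fold change divided by the root of F. Reads carry no molecular identifiers, so the precision that 28806840 to 32913813 counts per library give covers counting error only. CPM printed here were computed from the counts with the same scaling, and RPKM from those and the deposited lengths. The fit was tested on simulated counts.

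The rule for named genes took all 8 members, up to 3 called forkhead genes per contrast, and from each list up to 2 called genes per direction and contrast with the smallest adjusted p, some of which are left out for brevity. The genes with a pattern most like that of Foxc2 are not reported here. Chromosomal neighbours, genes shared between lists and further called forkhead genes were named after their values were seen. The members, the hand-written lists and the rules were chosen with earlier results of these data known. Neighbours and promoters come from RefSeq GRCm38.p6, not the build of the counts, and were matched by name. Other settings tried were upper-quartile and median-of-ratios scaling, no filter, a filter of 1 CPM in 3 libraries, DESeq2 1.42.0, limma-voom (limma 3.58.1), the compared groups alone, a replicate block, a cardiomyocyte covariate and each library left out. List counts were recomputed under 3 settings chosen after seeing the data. Figures used matplotlib 3.10.9.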

Additional observations from a re-analysis of the deposited data

How the results depend on the processing

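With the cardiomyocyte covariate, 1 member was called for 22-week BPH/2J against BPN/3J (4 without the covariate) and 2 for 4-week BPH/2J against BPN/3J (5 without), where 2752 of all genes were called (8115 without). The cause was not tested, and the covariate and the line cannot be told apart. Leaving out 1 library at a time gave 3 to 5 members called for 22-week BPH/2J against BPN/3J, 5 for 22-week against 4-week BPH/2J and 4 to 5 for 4-week BPH/2J against BPN/3J, with 4362 to 7117, 4606 to 7383 and 6968 to 8682 genes called in all. Over the 8 genes and 3 comparisons, 206 tests with a library left out kept their side of the threshold, 8 lost a call and 2 gained one, and under the other settings 207 kept it, 7 lost a call and 2 gained one. No called direction reversed in any of them.

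Fitting the compared groups alone gave Foxp1 a call at 22 weeks (log2 0.21, adjusted p = 0.0337) and ended that of Foxc2 (adjusted p = 0.0556). The 22-week difference of Foxp1 from BPN/3J ran from 0.16 to 0.27 with 1 library left out. Over all settings it ran from -0.20 to 0.27, so its sign depended on the setting. The low end of -0.20 came from the fit with the cardiomyocyte covariate, which cannot be told apart from the line. Residual correlations of libraries with equal replicate numbers ran from -0.161 to 0.077. Pairs with unequal numbers were not set beside them, so this cannot show whether equal numbers share a preparation. With the replicate block 4, 5 and 5 members and 5261, 5758 and 7723 genes were called in the order of comparisons above. Foxc2 was measured at 2.48 to 6.74 CPM.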
